A study of Mus musculus with 22 samples.

Results

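The 10 genes described here encode the myosin chains by which fast, slow and developing skeletal muscle fibres are told apart. They were listed by name, and of the probes annotated to 1 listed gene only, the probe with the highest mean over the 22 samples stood for each gene. All 10 had such a probe, out of 12393 genes measured. The 5 fast chains were the heavy chains Myh4, Myh1 and Myh2 and the light chains Myl1 and Mylpf. The 3 slow chains were Myh7, Myl2 and Myl3, and the 2 developmental chains were the embryonic heavy chain Myh3 and the perinatal heavy chain Myh8.

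The samples were loose connective tissue from beneath the trunk skin of male C57BL/6 mice with a body weight of 19 to 24 g. From 7 mice the tissue was held in vivo and from 4 other mice ex vivo, and every mouse gave 1 stretched and 1 shortened piece, allotted at random within the animal. The 4 groups were thus in vivo shortened (n = 7), in vivo stretched (n = 7), ex vivo shortened (n = 4) and ex vivo stretched (n = 4), with no other treatment, transgene or allele named in the labels. Neither the force nor the time of the stretch is given there, and the series title puts muscle-related genes of fibroblasts at the centre of the comparison.

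Myosin is the motor protein of the sarcomere, the contractile unit of striated muscle. Each motor holds a pair of heavy chains, which bind actin and split ATP, and each heavy chain carries an essential and a regulatory light chain. Adult limb and trunk muscles of the mouse use Myh4 in the fastest glycolytic fibres (type IIb), Myh1 in type IIx, Myh2 in fast oxidative type IIa and Myh7 in slow type I fibres. Myh3 and Myh8 are used before and around birth and again in regenerating fibres.

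The fast and developmental heavy chain genes lie next to each other on mouse chromosome 11, in the order Myh3, Myh2, Myh1, Myh4 and Myh8, whereas Myh7 is on chromosome 14, Myl1 on chromosome 1, Mylpf on chromosome 7, Myl2 on chromosome 5 and Myl3 on chromosome 9. All 10 of 10 genes were found in the RefSeq promoter table of GRCm38.p6. The 250 bases upstream of the starts of Myh4, Myh1 and Myh2 share a run of 20 bases, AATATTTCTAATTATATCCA, which was searched for after the sequences had been seen. It was defined as the longest run that these 3 windows share. Its start lies 163 bases upstream of the start site in Myh4, 165 in Myh1 and 130 in Myh2. Out of 32851 windows of the same length in the table, the run stood whole on either strand in 3, those of Myh1, Myh2 and Myh4. A match of at least 18 of its 20 bases, sought on 1 strand only, was found in 4, the fourth being Myh8. This closest match in Myh8 starts 59 bases upstream of its start site. On that 1 strand the best match was 13 bases in Myh7, 11 in Myh3, 10 in Myl1 and Mylpf, and 9 in Myl2 and Myl3. The median window of the table reached 10. The windows of Myh4, Myh1 and Myh2, the heavy chains that varied most across the samples, hold the run whole by its definition. No link between the run and the signals was tested. Each window shown is 80 bases on the plus strand of GRCm38.p6, with the run or its closest match in capitals: chr11:67237619-67237698 for Myh4, chr11:67199907-67199986 for Myh1, chr11:67170867-67170946 for Myh2 and chr11:67277035-67277114 for Myh8.
Myh4: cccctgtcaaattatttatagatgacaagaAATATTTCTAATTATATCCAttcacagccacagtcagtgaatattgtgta
Myh1: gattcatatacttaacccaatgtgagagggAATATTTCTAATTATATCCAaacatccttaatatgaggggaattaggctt
Myh2: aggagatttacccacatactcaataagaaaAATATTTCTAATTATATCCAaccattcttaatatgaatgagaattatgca
Myh8: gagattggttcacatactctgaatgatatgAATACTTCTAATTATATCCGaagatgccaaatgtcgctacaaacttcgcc

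The same upstream windows were searched on both strands for the E-box CANNTG, which binds the myogenic transcription factors, and the MCAT box CATTCC, which binds TEAD factors. An E-box stood in 66.2% of all windows of the table and an MCAT box in 12.6%. RefSeq lists 2 start sites each for Myh7 and Myl2, and unless stated the first was used, here and for the shared run. Myh4 held 2 E-boxes, Myl1, Mylpf, Myh7, Myl2, Myl3, Myh3 and Myh8 held 1 each, and Myh1 and Myh2 held 0. MCAT boxes numbered 2 in Myl3 and 1 each in Myh4, Myh1, Myl1 and Myh7, with 0 in the other 5 genes. At their second start sites Myh7 and Myl2 each held 2 E-boxes and 0 MCAT boxes. A match is a string of letters and was not read as a binding site.

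Signals are log2 values, so a difference of 1 stands for a doubling of signal. No detection values were used, so whether a low signal lay above background was not tested for any chain, and no folds are given. Sample medians were 7.28 to 7.41 in vivo and 6.85 to 6.90 ex vivo, and the settings looked normalized apart from each other, which touches every level set across them. Fibroblast markers, 12 genes such as Col1a1 and Dpt, averaged 12.10 to 12.63 in the in vivo samples and 10.74 to 11.28 ex vivo. Skeletal muscle markers, 19 genes such as Acta1 and Ckm with no myosin chain among them, averaged 5.25 to 11.68. Precision is limited by how few arrays there are, and in bulk tissue fewer cells of a type cannot be told apart from less RNA per cell.

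In vivo, the type IIb chain Myh4 had the highest stretched-minus-shortened difference of all 22626 probes tested, Myh1 the third highest and Mylpf the eighth. Of the 5 fast chains 5 were higher in stretched tissue on average, with a median difference of 2.34, while 3 of 3 slow chains were lower on average, with a median of -0.41. The 2 developmental chains had a median of 0.10, and all probes had a median of -0.02. None of the 10 passed limma's test after Benjamini-Hochberg adjustment over all probes, as 0 probes did (0% of those tested, with 4373 at an unadjusted p under 0.05). At an unadjusted p under 0.05, 5 of the 10 were higher in stretched tissue and 0 lower. By that rule 7.95% of all probes were higher, and 2574 of the 22626 were lower.

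**Figure D1:**
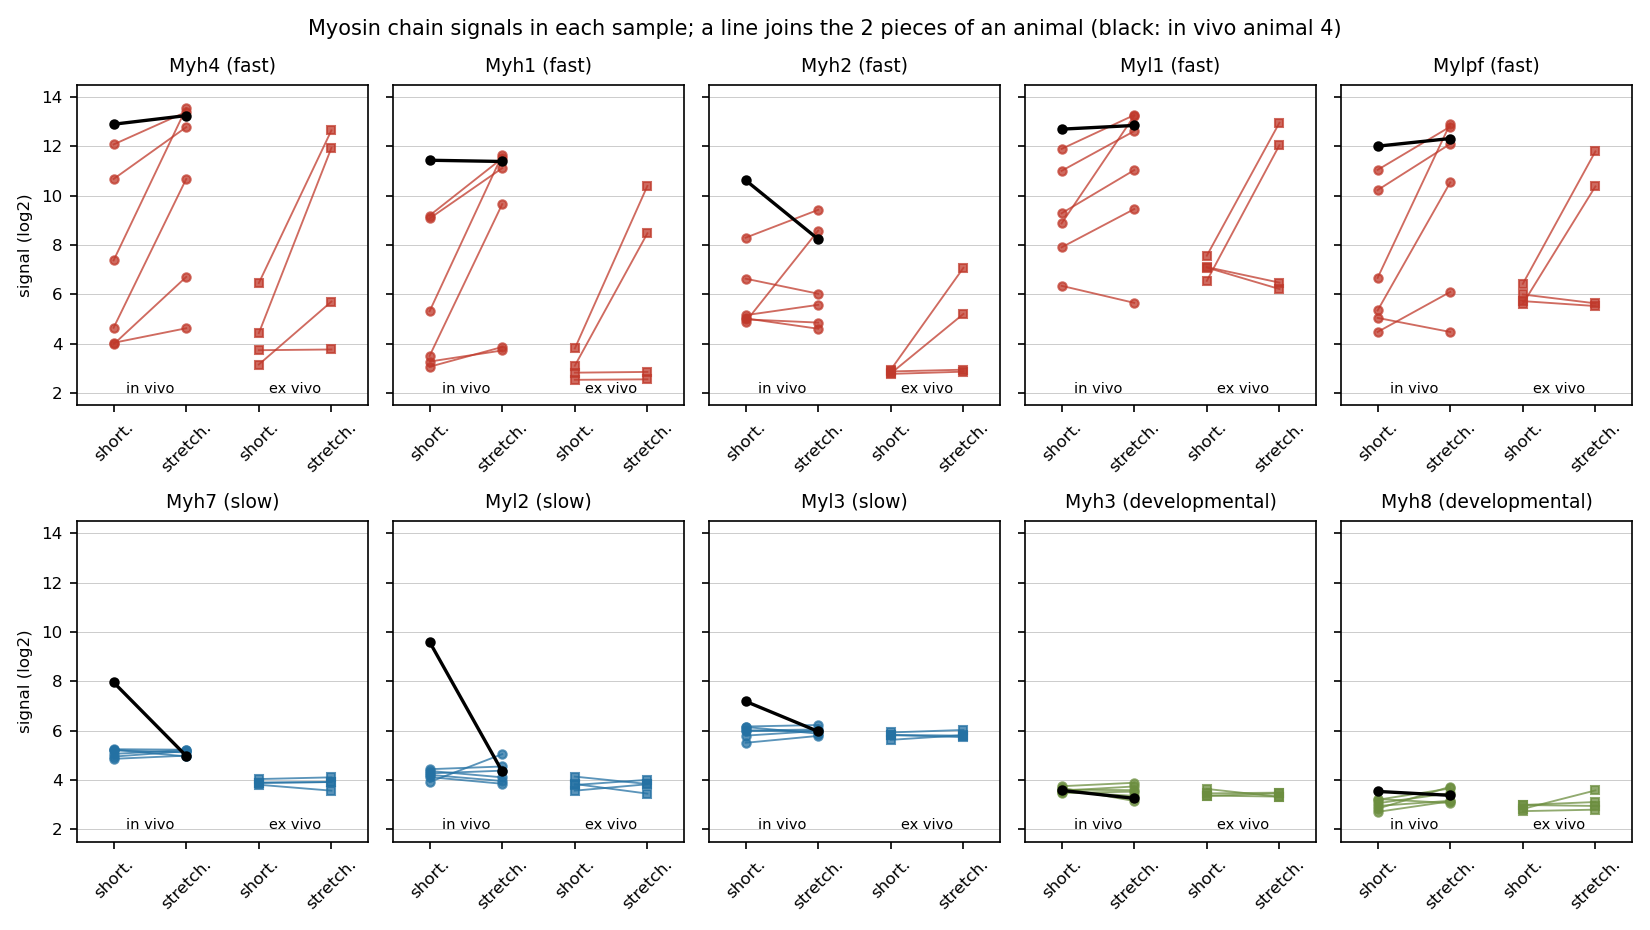
Log2 signal of each myosin chain in every sample, with a line joining the shortened and the stretched piece of an animal (circles, 7 animals in vivo; squares, 4 animals ex vivo; black, in vivo animal 4). Fast chains span several log2 units within a group. Slow and developmental chains vary little apart from the shortened piece of in vivo animal 4, which reaches 9.60 for Myl2.

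Myh4, the heavy chain of type IIb fibres, had signals of 4.03, 3.97, 12.07, 12.89, 7.37, 4.64 and 10.67 in the shortened pieces of in vivo animals 1 to 7. In the stretched pieces of the same animals it had 4.62, 6.70, 13.39, 13.24, 13.54, 10.67 and 12.77. The shortened pieces of animals 3, 4 and 7 were thus already high, the stretched piece of animal 1 stayed low, and the groups overlapped. The stretched piece was higher in 7 of 7 animals, a pattern met by 1 of the 10 chains and by 1.34% of all probes. Group means were 7.95 ± 3.90 (SD, n = 7) and 10.70 ± 3.63 (SD, n = 7), and the difference was 2.76 ± 0.71 (SE), with a limma adjusted p of 0.172.

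Myh1, the type IIx heavy chain, ranged from 3.06 to 11.43 with a median of 5.31 in shortened tissue in vivo, and from 3.72 to 11.64 with a median of 11.11 in stretched tissue. It was higher in the stretched piece of 6 of 7 animals and differed by -0.05 in animal 4, where the shortened piece stood at 11.43. The difference was 2.58 ± 0.78 (SE), with a limma adjusted p of 0.172. A further Myh1 probe gave 2.43 ± 0.82 (SE), but the third was flat at 0.08 ± 0.14 (SE), with signals of 4.64 to 5.72 over the in vivo samples. The probes of Myh1 therefore disagree, and how far each also binds transcripts of the similar neighbouring genes was not tested.

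Myl1, the essential light chain of fast fibres, ranged from 6.34 to 12.69 with a median of 9.28 in shortened tissue and from 5.65 to 13.26 with a median of 12.61 in stretched tissue. It differed by 1.44 ± 0.46 (SE) and was higher in the stretched piece of 6 of 7 animals (limma adjusted p = 0.174). Mylpf, the regulatory light chain of fast fibres, ranged from 4.47 to 12.00 with a median of 6.66 and, when stretched, from 4.47 to 12.91 with a median of 12.09. Its difference was 2.34 ± 0.73 (SE), again with 6 of 7 animals higher (limma adjusted p = 0.173). Animal 1 was the exception for both light chains, with differences of -0.69 for Myl1 and -0.57 for Mylpf, and for both genes the groups overlapped.

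Myh2, the heavy chain of fast oxidative type IIa fibres, had the smallest difference of the 5 fast chains in vivo. Its signals were 5.02, 4.98, 8.29, 10.62, 4.88, 5.15 and 6.63 in the shortened pieces of animals 1 to 7, and 4.60, 4.85, 9.42, 8.23, 8.58, 5.57 and 6.02 in the stretched pieces. It was higher in the stretched piece of 3 of 7 animals, with pair differences from -2.39 in animal 4 to 3.70 in animal 5. The fitted difference was 0.24 ± 0.55 (SE), with a 95% interval of -0.99 to 1.47 and a limma adjusted p of 0.852. Without animal 5 it was -0.34, so its direction rests on that animal.

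Set against Myh4 within the same animal, the Myh2 difference was smaller in 7 of 7 animals in vivo. Myh2 minus Myh4 was -1.02, -2.87, -0.19, -2.73, -2.47, -5.61 and -2.71 in animals 1 to 7, a mean of -2.51 ± 1.71 (SD, n = 7). Myh1 minus Myh4 was -0.18 ± 0.89 (SD, n = 7), with 4 of 7 animals below 0. In animals 1, 2 and 6 both pieces had low Myh2 signals, between 4.60 and 5.57, and if those lie at background the Myh2 difference there could not follow that of Myh4. Ex vivo, Myh2 minus Myh4 had a mean of -2.40 ± 2.12 (SD, n = 4), with 3 of 4 animals below 0. No test of these differences between genes was made, since probes differ in their response.

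**Figure D2:**
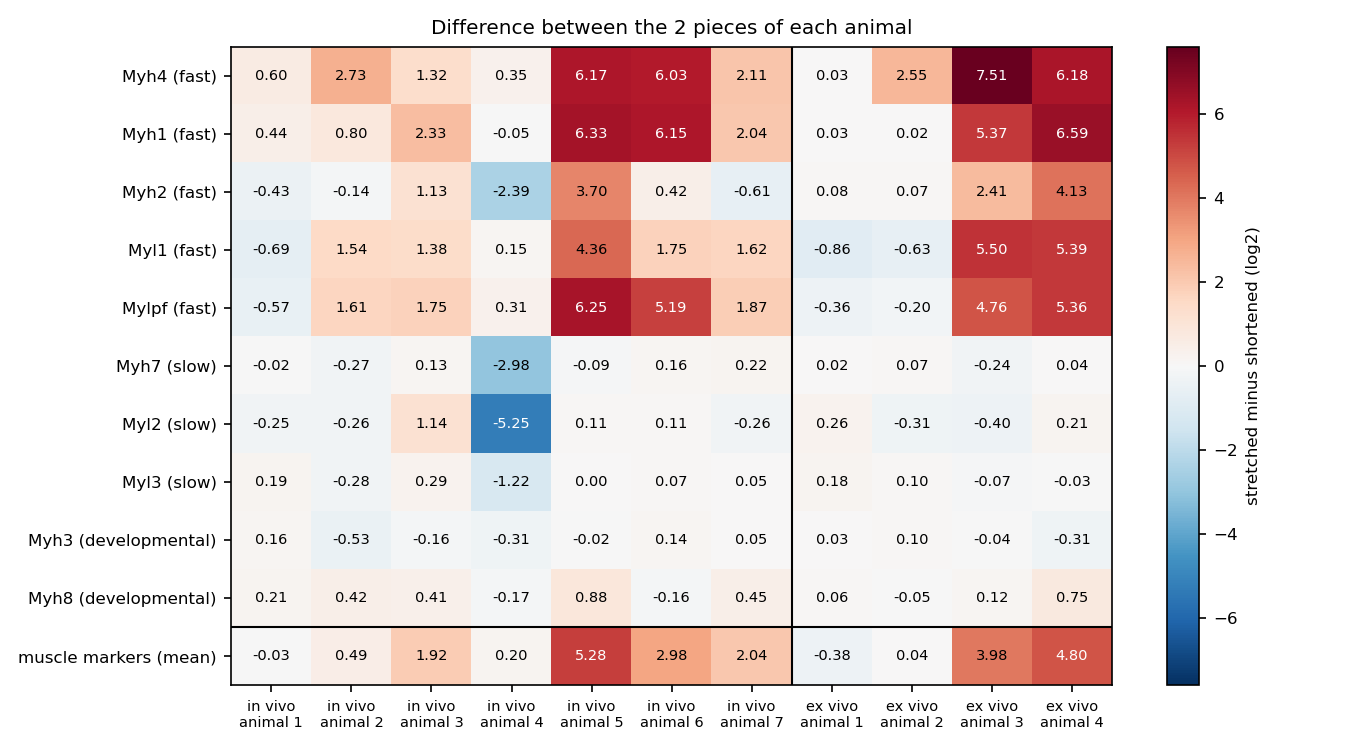
Stretched minus shortened log2 difference of each chain (lines of the grid) in each animal (columns; 7 in vivo, 4 ex vivo), with the mean of 19 skeletal muscle markers at the bottom; red is higher and blue lower in stretched tissue. Large fast-chain differences sit in in vivo animals 5 and 6 and ex vivo animals 3 and 4, and the lowest values are those of Myl2 (-5.25) and Myh7 (-2.98) in in vivo animal 4.

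Markers of skeletal muscle moved with the fast chains. The mean of the 19 markers was 5.53 to 10.68 in shortened (7.48 ± 2.15, SD, n = 7) and 5.56 to 11.68 in stretched tissue in vivo (9.31 ± 2.60, SD, n = 7), and 19 of 19 markers were higher in stretched tissue, 19 of them at an unadjusted p under 0.05 and 0 after adjustment. Pair differences of the marker mean were -0.03, 0.49, 1.92, 0.20, 5.28, 2.98 and 2.04 in animals 1 to 7, largest in animals 5 and 6, as for Myh4 (6.17 and 6.03). Acta1, skeletal alpha-actin, ranged from 5.52 to 13.33 in shortened and from 6.10 to 13.74 in stretched tissue, and Ckm, muscle creatine kinase, from 5.79 to 11.94 and from 6.08 to 13.07. With the marker mean of each sample as a covariate the difference was 0.74 ± 0.57 (SE) for Myh4, 0.19 ± 0.45 for Myh1, 0.02 ± 0.27 for Myl1, 0.06 ± 0.39 for Mylpf and -1.33 ± 0.44 for Myh2, with limma adjusted p from 0.836 to 0.995. Of the 19 markers 8 are also fast fibre partners, so this covariate cannot part muscle content from fast fibre content. The part of muscle content in the stretch result was not tested beyond these values.

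Markers of other cell types differed in vivo as well, each list by less on average than the muscle markers and with 0 genes past the adjusted test. Of all 22626 probes 12728 were lower and 9898 higher in stretched tissue, so lower was the more common direction. The fibroblast marker mean was lower in the stretched piece of 7 of 7 animals, by 0.03 to 0.44, with 12 of 12 genes lower (median -0.13), and the Schwann cell and nerve marker mean was lower in 6 of 7, with 8 of 8 genes lower (median -0.27). Macrophage markers were lower in 5 of 7 animals, with 10 of 10 genes lower (median -0.16). Adipocyte markers were higher in 6 of 7 animals, with 8 of 8 genes higher (median 0.50), and endothelial markers in 5 of 7, with 9 of 10 genes higher (median 0.35). Ex vivo the fibroblast mean was lower in 3 of 4 animals and the other 4 lists in 2 of 4. Their part in the myosin differences was not tested.

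Animals 5 and 6 also carried much of the size. Without them the differences were 1.42 ± 0.32 (SE) for Myh4, 1.11 ± 0.33 for Myh1, 0.80 ± 0.33 for Myl1 and 0.99 ± 0.35 for Mylpf, with limma adjusted p from 0.370 to 0.381. The 3' minus 5' difference of the Gapdh control probes, which is larger where RNA is more degraded, was 0.11 to 0.27 in animals 1 to 3, while the other 4 animals had 0.87 to 3.61. Myh4 within each of these sets differed by 1.55 ± 0.39 (SE) and 3.66 ± 0.92 (SE), so the direction was the same in both. Its pair differences were 0.60, 2.73 and 1.32 in animals 1 to 3, and 0.35, 6.17, 6.03 and 2.11 in animals 4 to 7. The sizes in these sets were not compared by a test. Limma's adjusted p for Myh4 was 0.564 and 0.488 in these sets, and the part of RNA quality in the result was not tested.

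**Figure D3:**
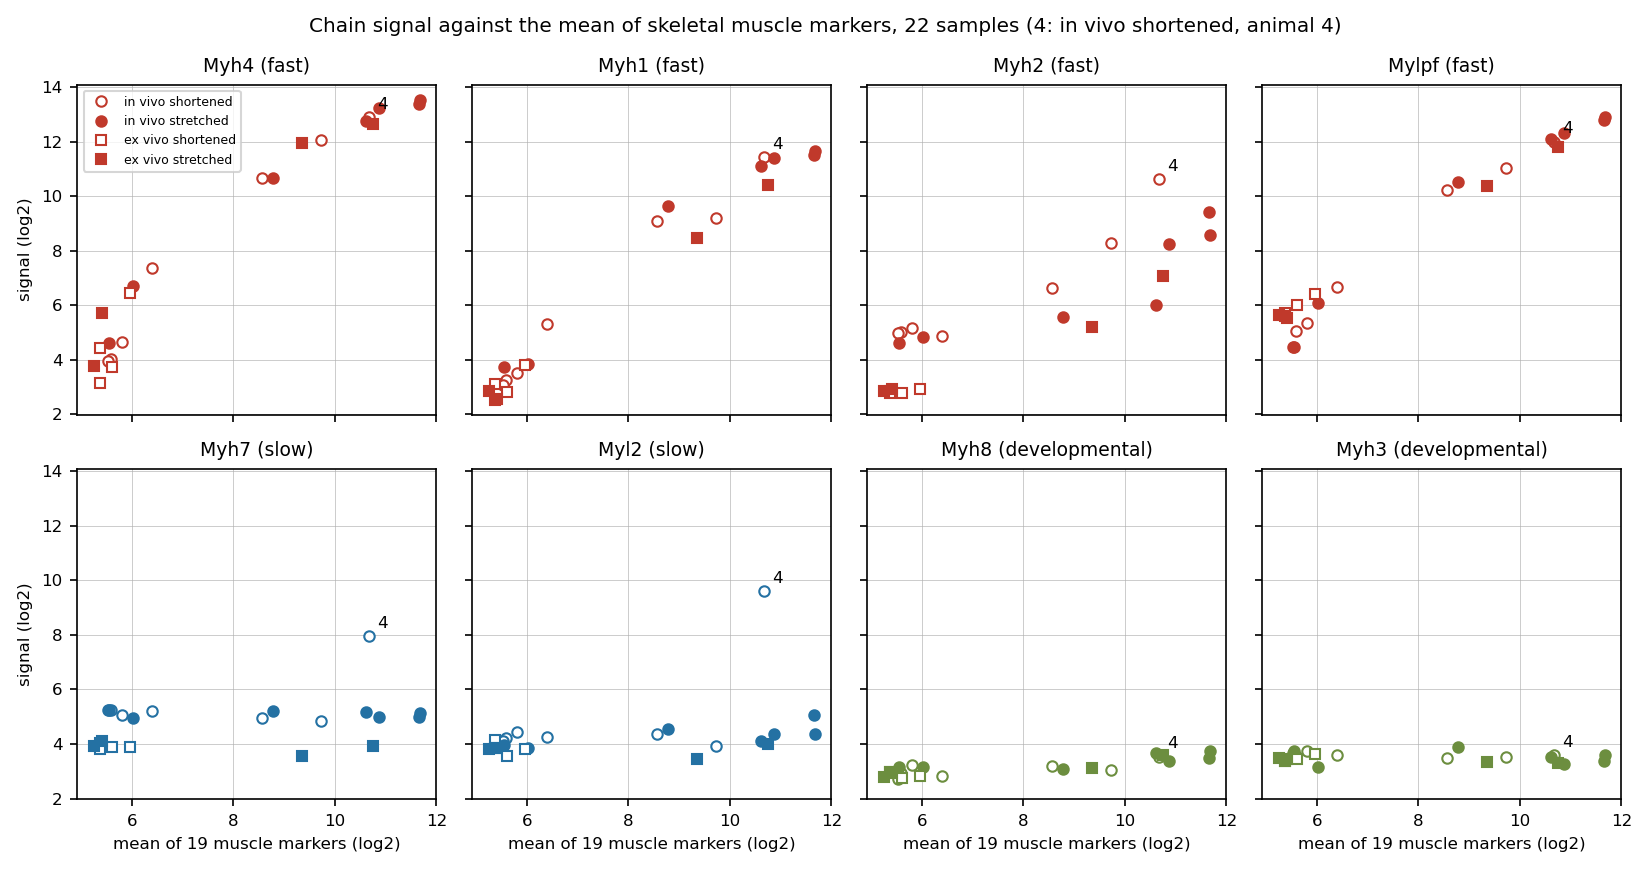
Log2 signal of 8 myosin chains against the mean log2 signal of 19 skeletal muscle markers in the 22 samples (circles in vivo, squares ex vivo; open shortened, filled stretched; the digit marks the shortened piece of in vivo animal 4). Fast chains climb along the marker axis from about 5 to 12, Myh2 more loosely than Myh4. Slow and developmental chains vary little except for 7.96 (Myh7) and 9.60 (Myl2) in that piece. Myh8 stays between 2.71 and 3.73 in vivo, though its deviations from the group mean had a Pearson's r of 0.69 with those of Myh4.

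The slow chains varied little over 13 of the 14 in vivo samples. Myh7, the beta heavy chain of slow and cardiac muscle, had signals of 5.25, 5.23, 4.86, 7.96, 5.21, 5.06 and 4.95 in shortened pieces 1 to 7 and of 5.23, 4.96, 4.99, 4.98, 5.12, 5.22 and 5.17 in stretched pieces. Myl2, the slow and ventricular regulatory light chain, stood at 9.60 in the shortened piece of animal 4 and between 3.85 and 5.05 in the other 13. Myl3, the slow and ventricular essential light chain, stood at 7.19 in that piece and between 5.51 and 6.23 elsewhere. The shortened piece of animal 4 therefore lay outside the range of all other in vivo samples for 3 of 3 slow chains, and the stretched piece of the same animal did not.

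The fitted stretch difference in vivo was -0.41 ± 0.34 (SE) for Myh7, -0.67 ± 0.61 for Myl2 and -0.13 ± 0.16 for Myl3 (limma adjusted p = 0.550, 0.591 and 0.697). Without animal 4 these were 0.02, 0.10 and 0.05, so that animal alone set the sign of all 3. Other probes behaved alike in its shortened piece: a probe shared by Myh7 and the cardiac alpha chain Myh6 read 7.11, and the other Myl3 probes read 7.66 and 6.67. A second probe shared by Myh7 and Myh6 read 2.81 there, its lowest value among the in vivo shortened pieces.

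The slow troponins, from a list of 13 measured slow fibre partners, were high in the same sample. The mean of all 13 was 8.86 there, not far above the 8.48 in the stretched piece of animal 3. The slow troponins, which set calcium sensitivity in slow fibres, stood at 6.75 (Tnni1), 8.47 (Tnnt1) and 7.76 (Tnnc1) in the shortened piece of animal 4, against 4.95 to 5.53, 5.31 to 6.40 and 5.25 to 5.65 in the other 13 in vivo samples. Genes used in heart but not in slow skeletal fibres were within the range of the other samples there: Nppa at 3.32 (2.93 to 3.82), Myh6 at 3.22 (2.91 to 3.45), Myl7 at 4.22 (3.88 to 4.72) and Tnni3 at 6.74 (6.30 to 6.91). The type IIa chain Myh2, at 10.62, was also higher in that piece than in any other in vivo sample, by 1.21 over the next. Myh4, at 12.89, was exceeded by 3 of the other 13 samples, and the muscle marker mean there was 10.68.

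The developmental chains varied little throughout. Myh3, the embryonic heavy chain, ranged from 3.48 to 3.75 with a median of 3.58 in shortened and from 3.15 to 3.89 with a median of 3.53 in stretched tissue in vivo, and differed by -0.10 ± 0.09 (SE, limma adjusted p = 0.585). Myh8, the perinatal heavy chain, ranged from 2.71 to 3.54 with a median of 3.06 and from 3.07 to 3.73 with a median of 3.38. Its difference was 0.29 ± 0.12 (SE), higher in 5 of 7 animals, with an unadjusted p of 0.0301 and a limma adjusted p of 0.216. For both genes the groups overlapped.

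Ex vivo, Myh4 again had the highest difference of all 22626 probes, and 5 of 5 fast chains were higher in stretched tissue on average, with a median of 2.39. Slow chains had a median of -0.03, developmental chains of 0.08 and all probes of 0.00. None of the 10 chains passed the adjusted limma test, as no probe did (0 of 22626, 0%, with 2508 at an unadjusted p under 0.05). By the unadjusted rule 3 of the 10 were higher (Myh4, Myh1 and Myh2) and 0 lower, where 5.23% of all probes were higher. The stretched piece was higher in every animal for the same 3 chains, a pattern met by 10.8% of all probes.

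Myh4 had signals of 3.73, 3.15, 4.42 and 6.45 in the shortened pieces of ex vivo animals 1 to 4 and of 3.76, 5.70, 11.93 and 12.64 in the stretched pieces. Animals 3 and 4 were high when stretched, animal 2 lay between, and the pieces of animal 1 differed by 0.03. The fitted difference was 4.07 ± 1.15 (SE), with a limma adjusted p of 0.363.

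Myh1 read 2.82, 2.53, 3.10 and 3.80 in shortened and 2.85, 2.55, 8.47 and 10.39 in stretched tissue ex vivo (difference 3.00 ± 1.17, SE, limma adjusted p = 0.430). Myh2 read 2.77, 2.87, 2.79 and 2.94 and, stretched, 2.86, 2.94, 5.20 and 7.07 (1.67 ± 0.67, SE, limma adjusted p = 0.436). For both, animals 1 and 2 differed by at most 0.08 and animals 3 and 4 held the whole difference. Unlike in vivo, the 4 shortened pieces lay within 0.16 of each other for Myh2.

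The fast light chains were slightly lower in the stretched pieces of animals 1 and 2 and far higher in those of animals 3 and 4. Myl1 read 7.08, 7.10, 6.54 and 7.56 in shortened and 6.21, 6.47, 12.04 and 12.95 in stretched tissue (2.35 ± 1.21, SE, limma adjusted p = 0.521). Mylpf read 5.99, 5.72, 5.61 and 6.42 and, stretched, 5.63, 5.52, 10.37 and 11.79 (2.39 ± 1.05, SE, limma adjusted p = 0.463). Each was higher in 2 of 4 animals.

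The muscle markers followed the same animals ex vivo. Their mean differed by -0.38, 0.04, 3.98 and 4.80 in animals 1 to 4, and 19 of 19 were higher on average, 7 at an unadjusted p under 0.05 and 0 after adjustment. Without animals 3 and 4 the differences were 0.03 for Myh1, 0.07 for Myh2, -0.75 for Myl1 and -0.28 for Mylpf, but 1.29 ± 0.57 (SE, limma adjusted p = 0.864) for Myh4. Animal 2 alone gave that value: Myh4 was 2.55 higher in its stretched piece, while Myh1 differed by 0.02, Mylpf by -0.20 and the markers by 0.04. With the markers as a covariate Myh4 differed by 1.55 ± 0.64 (SE), Myh1 by 0.25, Myh2 by 0.15, Myl1 by -0.46 and Mylpf by -0.07, with limma adjusted p from 0.561 to 0.908, and the part of muscle content was not tested further.

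Slow and developmental chains varied little ex vivo. Myh7 ranged from 3.57 to 4.11 over the 8 samples, Myl2 from 3.45 to 4.14 and Myl3 from 5.63 to 6.03, with differences of -0.03 ± 0.09 (SE), -0.06 ± 0.14 and 0.04 ± 0.10. Myh3 differed by -0.06 ± 0.09 (SE). Myh8 read 2.74, 2.99, 2.99 and 2.83 in shortened and 2.80, 2.95, 3.11 and 3.58 in stretched tissue, a difference of 0.22 ± 0.14 (SE, limma adjusted p = 0.593), with animal 4 alone at 0.75.

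**Figure D4:**
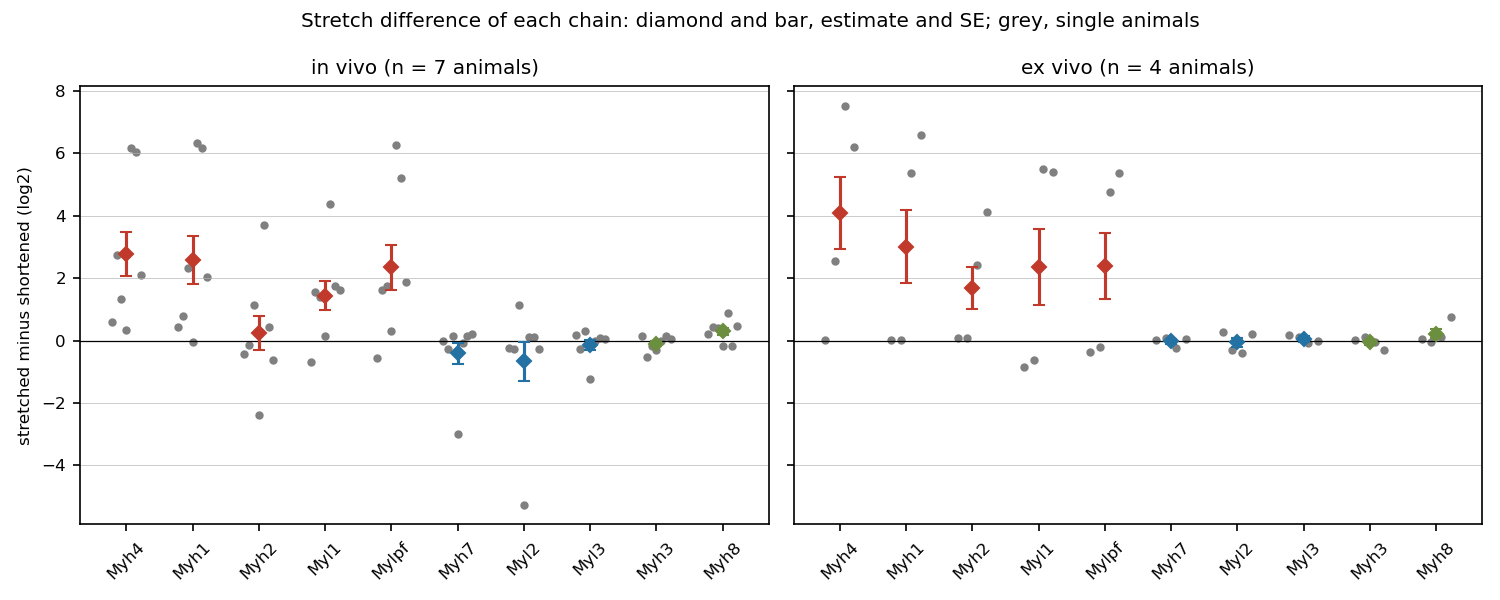
Stretched minus shortened log2 difference of each chain in vivo (7 animals) and ex vivo (4 animals): the diamond and bar give the limma estimate and its SE, the grey points single animals. Myh4 is highest in both settings (2.76 and 4.07), and Myh2 is near 0 in vivo (0.24) but at 1.67 ex vivo.

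Whether stretch acted differently in the settings was tested on the difference of the stretch differences, ex vivo minus in vivo, which compares separate animals. None of the 10 chains passed, where 0.177% of all probes did, and 0 of the 10 had an unadjusted p under 0.05. The values ran from -0.07 for Myh8 to 1.43 for Myh2. Myh2 had a 95% interval of -0.72 to 3.58 (limma adjusted p = 0.533) and Myh4, at 1.31, of -1.83 to 4.46 (limma adjusted p = 0.722), so a larger and a smaller effect ex vivo both lie within these intervals.

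Shortened tissue was also compared between settings, as the change beyond the median of all probes, which was -0.38. Of the 10 chains 3 passed limma's adjusted test, below the 67.3% of all probes that did, so this count does not set the chains apart. Myh2 was lower ex vivo by -3.28 ± 0.97 (SE, adjusted p = 0.00946) and Myh7 by -1.21 ± 0.49 (SE, adjusted p = 0.042), while Myh3 was higher by 0.24 ± 0.07 (SE, adjusted p = 0.0116). Without removal of the median change Myh3 was at -0.14 (adjusted p = 0.103), so its direction turned. The call of Myh7 ended without any 1 of the 4 ex vivo animals (adjusted p from 0.0706 to 0.0862). Without in vivo animal 4 its difference was -0.80 (adjusted p = 3.03e-05). Of the probes shared by Myh7 and Myh6, 1 differed by -0.18 ± 0.46 (SE, adjusted p = 0.744). The other differed by 0.01 ± 0.13 (SE, adjusted p = 0.973), so the Myh7 call rests on 1 probe. In stretched tissue Myh2 (-1.85, adjusted p = 0.145) and Myh3 (0.28, adjusted p = 0.0686) did not pass. With muscle markers as a covariate Myh2 was at -1.46 (adjusted p = 0.00506), while Myh7 (-0.68, adjusted p = 0.241) and Myh3 (0.20, adjusted p = 0.0595) did not pass. Myh4 differed by -3.13 ± 1.77 (SE, adjusted p = 0.136).

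By group mean, Myh4 was lowest in ex vivo shortened tissue (4.44 ± 1.44, SD, n = 4), followed by in vivo shortened (7.95), ex vivo stretched (8.51 ± 4.44, SD, n = 4) and in vivo stretched tissue (10.70). Neighbours in this order differed by less than the larger of their SDs, as they did for Myh1, Myh2, Myl1 and Mylpf. For Myh2 the order was ex vivo shortened (2.84 ± 0.08, SD, n = 4), ex vivo stretched (4.52 ± 2.02), in vivo shortened (6.51 ± 2.20) and in vivo stretched (6.75 ± 1.95). Both orders cross settings that looked normalized apart.

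The genes listed as fast fibre partners had the same direction. Beside genes of the sarcomere and its calcium supply they include the glycolytic enzymes Pgam2, Eno3 and Pfkm and the transcription factor Sox6. In vivo 13 of 13 measured fast fibre partners were higher in stretched tissue, 12 at an unadjusted p under 0.05 and 0 after adjustment, with a median of 1.82, and 8 of the genes on this list are muscle markers as well. Examples are Myoz1, a Z-disc protein (1.82 ± 0.48, SE), Pvalb, the calcium buffer parvalbumin (2.21 ± 0.62), Tnnc2, fast troponin C (2.56 ± 0.73), and Atp2a1, the fast calcium pump (2.11 ± 0.64). Ex vivo 13 of 13 were higher, 5 at an unadjusted p under 0.05, with a median of 2.08. By the unadjusted rule 7.95% of all probes were higher in vivo and 5.23% ex vivo.

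Slow fibre partners were mixed. In vivo 8 of 13 were higher and 5 lower, 4 and 1 of them at an unadjusted p under 0.05 and 0 after adjustment, with a median of 0.14. The members with the smallest p were Csrp3, a Z-disc LIM protein (1.92 ± 0.64, SE), Mb, the oxygen carrier myoglobin (2.09 ± 0.71), Ppargc1a, a regulator of mitochondrial genes (0.59 ± 0.20), and Cd36, a fatty acid transporter (0.29 ± 0.10). None of these is a contractile protein of slow fibres alone, and fast oxidative fibres use them too. The slow troponins differed by -0.31 ± 0.17 (Tnni1), -0.15 ± 0.32 (Tnnt1) and -0.34 ± 0.28 (Tnnc1), and without animal 4 by -0.11, 0.22 and 0.01. Ex vivo 11 of 13 were higher, 2 at an unadjusted p under 0.05, with a median of 0.07. Of all 22626 probes 1799 were higher and 2574 lower in vivo by that rule, and 1184 were higher ex vivo.

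Of the genes of fibre formation and regeneration 13 of 15 were higher in vivo (median 0.11), 6 at an unadjusted p under 0.05 and 0 after adjustment. Those with the smallest p were Des, the intermediate filament desmin (1.16 ± 0.34, SE), Actc1, cardiac alpha-actin (1.49 ± 0.46), Myf6, a transcription factor of mature fibres (1.22 ± 0.38), and Myod1, which directs cells into the muscle lineage (0.40 ± 0.14). The remaining myosin-related genes, among them the nonmuscle and smooth muscle heavy chains, were higher in 9 of 15 cases and lower in 6 (median 0.04), 4 and 1 of them at an unadjusted p under 0.05. The highest were the M-band proteins Myom1 (1.76 ± 0.54) and Myom2 (1.57 ± 0.49), and Myl4, the atrial and embryonic light chain, differed by 0.29 ± 0.13. Nonmuscle Myh9 differed by 0.00 ± 0.05 and smooth muscle Myh11 by 0.22 ± 0.23. Of the heart muscle markers 4 of 10 were higher in vivo (median -0.01), 0 at an unadjusted p under 0.05. Beside these lists, 1799 of all 22626 probes were higher and 2574 lower in vivo by that rule.

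Likeness between genes was measured as Pearson's r of the deviations from the group mean over the 22 samples, which come in pairs from 11 animals and share their muscle content, so no p is given. Closest to Myh4 outside the 10 chains were Acta1 (r = 0.99, Spearman's rho = 0.96), Tnnc2 (0.99, rho = 0.98), Tnni2 (0.98, rho = 0.98) and Tnnt3 (0.98, rho = 0.98), the skeletal actin and the 3 fast troponin subunits. Among the chains, Myh4 had r of 0.98 with Myh1 and Mylpf, 0.95 with Myl1, 0.86 with Myh2, 0.69 with Myh8 and -0.26 with Myh3. Myh7 went with Myl2 (0.96) and Myl3 (0.90) and, outside the 10, with Tnnc1 (0.95), Tnni1 (0.91), Tnnt1 (0.87) and Mmp1a (0.70). Without the shortened piece of in vivo animal 4 these were 0.71 and 0.67 within the chains and 0.68, 0.57, 0.38 and 0.30 outside, and the r of Myh7 with Myh4 went from 0.22 to -0.23. For Myh8 the closest were Alpk2 (0.87), Smyd1 (0.87), a muscle methyltransferase needed for sarcomere assembly, Yipf7 (0.85) and Smr2 (0.85).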

How the data were processed

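The 22 arrays measured total RNA of tissue homogenized in Tri-Reagent, labelled as biotin cRNA. Per the submitters' processing notes the authors used RMA and the affy package, with no versions stated, and the deposited values are log2 signals, as their range of 1.89 to 14.4 shows. Sample medians differed between the settings. The table has 22690 probes, 64 of them controls that were not tested, which leaves 22626. Of these 20380 carry 1 gene symbol in the supplied annotation, 691 several and 1555 none. The 10 chains had 16 probes, 14 of them annotated to 1 chain alone.

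Groups follow the sample titles. Equal numbers within a setting mark pieces of 1 animal here, because the series design names a comparison within animals. Their deviations from the group mean correlated with r of 0.385 to 0.867 in vivo and of 0.109 to 0.284 ex vivo. No r between pieces of unequal numbers is given beside them, so these values cannot show by themselves that equal numbers mark 1 animal. No pair of samples was identical (0 pairs).

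Tests used limma 3.58.1 in R 4.3.3 (lmFit, then eBayes with a mean-variance trend) with animals as blocks within a setting, 11 blocks for the difference between settings, and none for shortened tissue ex vivo against in vivo. Benjamini-Hochberg adjustment covered all 22626 probes, with a threshold of 0.05. The code was tested on simulated data.

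All 10 chains are named. Of each muscle list those with the smallest p in vivo are named, and the 4 genes most like Myh4, Myh7 and Myh8, with Acta1 and Ckm. The slow troponins, Myh9, Myh11, Myl4 and 4 heart genes were added after their values were seen. The chains and the lists were chosen with earlier results of these data known. Alternatives were quantile normalization, centring on medians, a filter at a mean of 6, no trend, robust eBayes, array weights, the mean of all probes of a gene, muscle markers as a covariate, each animal left out, the fit without animal blocks, a joint fit of all samples and stretched for shortened tissue. Added after seeing the data were the sets without in vivo animals 5 and 6 or ex vivo animals 3 and 4, the Gapdh sets and the median change kept. Promoter windows are those of RefSeq, GRCm38.p6. Protein sequences were not used here.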

Additional observations from a re-analysis of the deposited data

Results flagged for a closer look

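Dixon's ratio, the gap to the next value over the range, was taken in 60 groups of values (10 chains, each with 4 groups of signals and 2 of pair differences). Of these 7 held a lone value, where chance gives about 1 in 20 independent groups of normal values. In vivo animal 4 gave 6 of the 7. Its shortened piece was highest for Myh7 (7.96, next 5.25), Myl2 (9.60, next 4.44) and Myl3 (7.19, next 6.17). Its pair difference was lowest for Myh7 (-2.98, next -0.27), Myl2 (-5.25, next -0.26) and Myl3 (-1.22, next -0.28). The seventh was the ex vivo difference of Myh7 in animal 3 (-0.24, next 0.02), a small value in a flat gene. These groups are not independent, as the pair differences reuse the signals and the slow chains were high together in 1 piece. The count of 7 therefore cannot be set against the rate by chance.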

How the results depend on the processing

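In both stretch comparisons and in the difference between the settings, 0 of the 10 chains passed under every alternative run, including the fits with no replicate block (0 in all 3) and each animal left out (0 to 0). The smallest adjusted p of Myh4 over its alternatives was 0.0822 in vivo and 0.0784 ex vivo. Signs turned for Myh2 in vivo with muscle markers as a covariate (-1.33) and without animals 5 and 6 (-0.49), and with each animal left out its range was -0.34 to 0.68. Leaving out each animal gave -0.51 to 0.02 for Myh7, -0.97 to 0.10 for Myl2 and -0.20 to 0.05 for Myl3 in vivo, where animals 1 to 3 alone gave 0.21 for Myl2 and 0.07 for Myl3. Ex vivo the same ranges were -0.06 to 0.04 for Myh7, -0.16 to 0.05 for Myl2, 0.00 to 0.08 for Myl3 and -0.11 to 0.03 for Myh3. Ex vivo values also turned for Myl3 as the mean of all its probes (-0.03), for Myl1 (-0.46), Mylpf (-0.07), Myh7 (0.02) and Myh3 (0.06) with the covariate, and without animals 3 and 4 for Myl1 (-0.75), Mylpf (-0.28), Myh7 (0.04) and Myh3 (0.06). In shortened tissue ex vivo against in vivo, the 3 chains called were 0 among probes with a mean of at least 6, where the low chains are not tested, 6 with array weights, 1 in stretched tissue and 2 to 4 with each animal left out. There Myh4 turned to 0.27 with the covariate and Myh3 to -0.14 with the median change kept. Apart from the filter on dim probes, the cause was not tested. No value for background signal was used, so whether the slow and developmental chains, or the fast chains in their lowest samples, are above background was not tested.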

Other observations

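The pair difference of Myl1 was below that of Mylpf in 7 of 7 animals in vivo, but the gap was small against its spread, with a median of -0.25 and a mean of -0.90 ± 1.29 (SD, n = 7) that animals 5 (-1.89) and 6 (-3.44) carried, while ex vivo it was smaller in 2 of 4 animals, with a mean of -0.04 ± 0.57 (SD, n = 4). In shortened tissue ex vivo Myl1 lay between 6.54 and 7.56 and Myh2 between 2.77 and 2.94.

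Myh2 was most like genes other than those closest to Myh4. Over the 22 samples its deviations correlated with Rbfox1, a splicing factor of muscle and nerve (r = 0.96, Spearman's rho = 0.97), Rpl3l, a ribosomal protein of striated muscle (0.95, rho = 0.96), Myoz2, a Z-disc protein of slow and oxidative fibres (0.95, rho = 0.95), and Ldb3 (0.95, rho = 0.97). For Mylpf the closest were the fast troponin genes Tnni2, Tnnc2 and Tnnt3 and titin, Ttn. These genes were chosen after the values were seen, the points share animals and muscle content, and no p is given.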
